A study of Mus musculus with 454 samples.

Results

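The nuclear genes for oxidative phosphorylation were followed through 4 mouse brain regions. They were taken by symbol: names that begin with Nduf followed by a, b, c, s or v and a number, with Sdh followed by a, b, c or d, with Uqcr, with Cox4 to Cox8, or with Atp5, without pseudogenes marked -ps, and with a mean of at least 1 CPM (counts per mega-count of a library's total) over all libraries. Of 43346 genes in the table, 98 matched the names, 92 were left without the pseudogenes, and 85 passed the level, out of 14649 genes that reached it. They comprise 35 genes of complex I, 4 of complex II, 8 of complex III, 15 of complex IV and 17 named for complex V, with Ndufa4 and Ndufa4l2 counted as a pair of their own. Sdhaf1, Sdhaf2, Sdhaf3 and Sdhaf4 also match by name, but they are assembly factors of complex II and not subunits. The member nearest the limit was Cox7a1, at 1.10 CPM, and the nearest gene below it was Cox7b2, at 0.228 CPM. Cox8b (0.161 CPM), Cox8c, Cox6c2, Ndufa11b, Ndufb4c and Ndufs6b also fell below it. The name rule leaves out Cyc1 of complex III.

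Libraries came from the amygdala (AMY, 115 libraries), the nucleus accumbens (Nac, 112), the prefrontal cortex (PFC, 112) and the ventral tegmental area (VTA, 115), where the labels give only the short names. Female and male mice were group-housed or socially isolated, received saline (0 mg/kg cocaine) or cocaine at 7.5 mg/kg, and were treated on an acute or a chronic schedule. These 4 factors were fully crossed into 16 groups a region, 64 altogether, of 5 to 8 libraries each. Of the numbers in the sample titles 124 recurred in more than 1 region, each with 1 combination of sex, housing, dose and schedule. The labels do not say whether a number marks a mouse, and the tests between regions treat the libraries as independent. Separate animals are not stated for the libraries, so p-values measure only the spread between these samples, part of which may be technical, and no strain or age is used here.

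Oxidative phosphorylation passes electrons from NADH and succinate along complexes I to IV of the inner mitochondrial membrane, and the proton gradient this builds drives ATP synthase, complex V. Most subunits are encoded in the nucleus and are assembled with a few that are encoded in mitochondrial DNA, so the genes of the complexes are commonly transcribed together. NRF1, the ETS factor GABP, YY1 and the estrogen-related receptors are known regulators of such genes, and neurons with sustained firing are known for a high demand on the pathway.

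Promoters are shown for motifs of the regulators named above, and their part in the members' levels was not tested. RefSeq sequences of build GRCm38.p6, from 250 bases before to 50 after the start, were at hand for 70 of the 85 members. Searched on both strands, GCGCATGCG (NRF1) occurred in 8 of the 70 (11.4%, against 1.95% of 27025 genes), CCGGAAG (ETS factors) in 19 (27.1% against 9.93%), AAGATGGCG (YY1) in 7 (10% against 1.64%), AAGGTCA (estrogen-related receptors) in 8 (11.4% against 5.38%) and TATAAA in 6 (8.57% against 15.7%), while 35 held none of them. Atp5k and Atp5l, of the membrane part of ATP synthase, hold the most kinds of motif. Cox5a, a subunit of cytochrome c oxidase with one of the largest regional differences, holds none in this window. Capitals mark the motif matches, on either strand, where the NRF1 letters can overlap their own reverse complement. The windows lie at chr5:108434350-108434649 (minus strand), chr9:44920693-44920992 (minus strand) and chr9:57520982-57521281 (plus strand).
Atp5k: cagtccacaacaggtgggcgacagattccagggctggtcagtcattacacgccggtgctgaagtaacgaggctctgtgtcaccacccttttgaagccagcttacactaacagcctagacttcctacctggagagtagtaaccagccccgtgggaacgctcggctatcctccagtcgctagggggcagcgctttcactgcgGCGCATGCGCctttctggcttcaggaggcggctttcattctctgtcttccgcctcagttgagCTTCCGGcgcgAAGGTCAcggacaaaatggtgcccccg
Atp5l: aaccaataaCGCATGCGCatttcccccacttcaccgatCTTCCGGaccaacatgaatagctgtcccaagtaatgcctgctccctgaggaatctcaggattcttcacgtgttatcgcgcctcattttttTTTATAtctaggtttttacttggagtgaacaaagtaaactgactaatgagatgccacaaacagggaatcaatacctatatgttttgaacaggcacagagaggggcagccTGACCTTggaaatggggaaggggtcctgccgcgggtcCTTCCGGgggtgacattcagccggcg
Cox5a: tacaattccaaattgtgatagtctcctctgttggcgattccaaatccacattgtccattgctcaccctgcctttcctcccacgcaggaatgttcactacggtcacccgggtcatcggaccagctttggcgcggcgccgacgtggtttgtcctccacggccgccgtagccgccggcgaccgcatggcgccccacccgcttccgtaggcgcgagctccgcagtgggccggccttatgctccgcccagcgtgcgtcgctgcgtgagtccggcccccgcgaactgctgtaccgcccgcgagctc
A match describes letters only, and the 27025 genes are not limited to those expressed in these libraries. Members with at least 1 of these motifs had a median difference between VTA and the other regions of 0.28 on the log2(CPM + 1) scale, and members with none had 0.37.

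The median library held 21.71 M (mega-counts), with a range of 11.21 to 52.34 M. On genes other than the members, 30 libraries stood apart from their region: 6 in AMY and 8 in each of the other regions. The 6 in AMY stood apart on choroid plexus markers, and those elsewhere on markers of choroid plexus, cerebellar granule cells, cortex, striatum, hypothalamus or dopamine neurons, or on the second principal component. Results are given with all libraries and, where they moved, without these 30. The sample titles carry numbers in 4 series (500, 1000, 1100 and 1200), whose meaning the labels do not give, and a series was also fitted alone. Libraries on chronic saline are of series 500 or 1200, and those on chronic cocaine of series 1000 or 1200. Chronic cocaine thus cannot be fully told apart from the series, for which the main fits have no term. The 13 mitochondrially encoded subunits of the same complexes are listed at 0 in every library, so only the nuclear side of the pathway was measured.

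Members were abundant and short. Their transcripts had a median length of 861 bases, against 3157 for protein-coding genes with at least 1 CPM, and 50 of the 85 were under 1000 bases. Per kilobase of transcript, the median level was 71.0 CPM per kb in complex I, 81.7 in complex II, 123 in complex III, 144 in complex IV and 130 in complex V, and 8.17 among the 4 assembly factors. Atp5b, the catalytic beta subunit of ATP synthase, was the highest of all at 589.6 CPM per kb. Exons of 32 members overlap another gene in the annotation, 29 of them on the opposite strand. The strand setting of the counting is not given in the sources used here, so counts of those members are uncertain.

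VTA held the highest level of most of these genes. The mean over libraries was highest in VTA for 75 of the 85 members, against 34.6% of all genes with at least 1 CPM. The lowest was in PFC for 43, against 34.1%. VTA exceeded the mean of the other 3 regions by a median of 0.31 on the log2(CPM + 1) scale, where the median of all genes was 0.0047, and 79 members lay above 0. Without the libraries that stand apart, 74 were highest in VTA, the median was 0.31 and the same number, 79, lay above 0. The lowest was then in PFC for 54, against 34.5% of all genes. These means carry no TMM factors, and the tests below, which use them, put more members higher than lower in PFC against AMY. PFC as the lowest region thus depends on the scaling. The members took a median of 1.14% of a VTA library's counts (range 0.916 to 1.91%), against 0.889% in AMY, 0.909% in Nac and 0.888% in PFC. In bulk tissue, fewer cells of a type and less RNA per cell cannot be told apart.

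**Figure D1:**
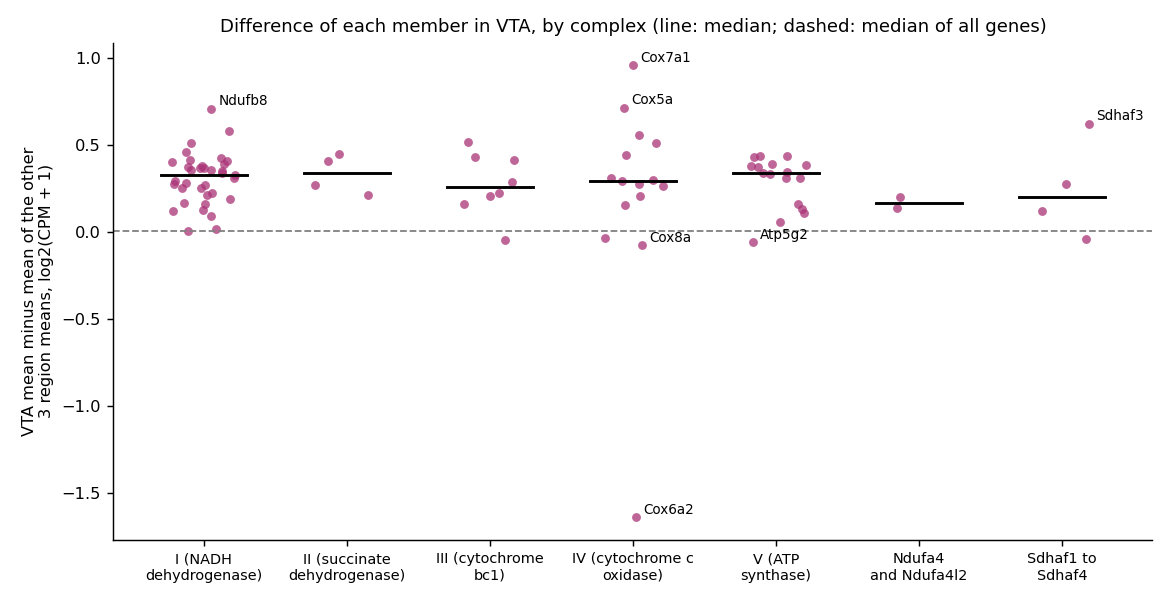
Each point is 1 member, plotted as its VTA mean minus the mean of the other 3 region means (log2(CPM + 1)) by complex, with the complex median as a line and the median of all genes dashed. Most points of every complex lie above 0, with medians of 0.33 in complex I and 0.34 in complexes II and V, and Cox6a2 of complex IV lies far below at -1.64.

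Tests between pairs of regions were made with edgeR's quasi-likelihood test over 18627 genes, and called means an adjusted p under 0.05. In VTA against AMY, 80 members were higher and 1 was lower (background 42.7% of genes higher and 44.7% lower), with a median log2 difference of 0.35. In VTA against Nac, 66 were higher and 8 lower (background 44.2% and 46.3%), with a median of 0.24. In VTA against PFC, 75 were higher and 5 lower (background 45.3% and 44.2%), with a median of 0.30. Without TMM factors 78, 69 and 78 members were higher in VTA, without the libraries that stand apart 78, 71 and 76, and with the level of short transcripts as a covariate (limma voom) 78, 58 and 53. In the 500 series of title numbers alone, VTA against Nac turned, to a median of -0.12. There the isolated females of Nac were 1 library, replicate 6 on chronic saline. Its member mean was far above those of its full group (7.683 on the log2(CPM + 1) scale, others 5.882 to 6.060). The part of that library in the turn was not tested. The 3 comparisons share the VTA libraries and are not independent of each other. The medians over all genes tested were -0.01, -0.02 and 0.01. Higher in VTA than in each of the other 3 regions were 64 of 85 members (28.7% of genes), and lower than in each was 1, Cox6a2 (28.5% of genes). Of the remaining 20, 12 were higher than 2 regions, 5 than 1 region, and Atp5g2, Cox8a and Sdhaf1 than none.

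Differences among the other 3 regions were smaller. In Nac against AMY, 50 members were higher and 13 lower (background 46.6% and 38%), with a median of 0.11. In PFC against AMY, 42 were higher and 12 lower (background 40.4% and 41.1%), with a median of 0.06. That direction turned without TMM factors, where 13 were higher and 37 lower and the median over all genes moved to -0.11. In PFC against Nac, 20 were higher and 42 lower (background 37.3% and 48.8%), with a median of -0.05. Without the libraries that stand apart, 36 were higher and 21 lower in Nac against AMY, 36 and 27 in PFC against AMY, and 29 and 40 in PFC against Nac. PFC against Nac turned in the 1000 series (26 higher, 15 lower), in the 1200 series (17 and 12) and with the short transcript covariate (40 and 21).

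The NADH-oxidizing arm, complex I, was among the clearest: 34 of its 35 members were higher in VTA than in AMY, 28 than in Nac and 33 than in PFC. Ndufs1, the large iron-sulfur subunit that carries electrons away from NADH, had a median of 165 CPM in VTA (135 to 202 over 115 libraries), against 123 in AMY (103 to 165), 138 in Nac (85.2 to 171) and 122 in PFC (104 to 139). Almost all VTA libraries lay above the medians of the others, but the ranges overlapped. Its log2 difference between VTA and PFC was 0.38 (SE 0.015, adjusted p = 1.79e-83). Ndufv1, which binds NADH and FMN, differed between VTA and AMY by 0.34 (SE 0.023). Ndufb8, an accessory subunit of the membrane arm, had a median of 63.6 CPM in VTA (44.4 to 93.2), against 40.7 in AMY (27.5 to 74.8), 36.5 in Nac (10.4 to 116) and 37.2 in PFC (25.9 to 60.9). VTA was the highest region by its medians, with overlap of single libraries in each pair, and the difference from Nac was 0.75 (SE 0.034, adjusted p = 3.06e-70). Ndufb2, another membrane-arm subunit, differed between VTA and PFC by 0.65 (SE 0.024). Ndufb4 was at the other end: its medians were 39.2 CPM in VTA, 39.0 in PFC, 38.2 in Nac and 37.3 in AMY, and VTA against Nac gave a log2 difference of 0.0011 (SE 0.029, adjusted p = 0.973). Its other 5 region pairs passed the threshold at small differences, from -0.08 for VTA minus PFC (adjusted p = 0.00771) to 0.16 for PFC minus AMY (adjusted p = 2.36e-07).

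Complex II, which oxidizes succinate and is also an enzyme of the citric acid cycle, had all 4 subunits higher in VTA than in each of AMY, Nac and PFC. Sdha, its flavoprotein, had a median of 605 CPM in VTA (506 to 679), 458 in AMY (387 to 589), 431 in Nac (231 to 576) and 430 in PFC (390 to 485). No VTA library fell within the PFC range, which held for 3 members (Cox7a1, Sdhaf3 and Sdha) and for 11.6% of all genes. The difference between VTA and PFC was 0.42 (SE 0.013, adjusted p = 4.84e-110). Sdhb, the iron-sulfur subunit, differed by 0.32 from AMY (SE 0.027) and by 0.12 from PFC (SE 0.027). Among the assembly factors, Sdhaf3, which helps to mature Sdhb, had medians of 22.05 CPM in VTA, 16.6 in AMY, 13.2 in Nac and 12.3 in PFC. Every VTA library, from 16.38 to 28.03 CPM, lay above every PFC library, of which the highest was at 15.96. Sdhaf2, which attaches FAD to Sdha, ranged only from a median of 35.5 CPM in Nac to 40.2 in VTA. Sdhaf1 had medians from 3.94 CPM in AMY to 4.26 in Nac and was lower in VTA than in Nac by a log2 difference of -0.18 (SE 0.039, adjusted p = 4.78e-06).

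In complex III, which passes electrons from ubiquinol to cytochrome c, all 8 members were higher in VTA than in AMY, 6 than in Nac and 7 than in PFC. Uqcrfs1, the Rieske iron-sulfur protein, had a median of 122 CPM in VTA (92.9 to 207), against 87.5 in AMY (65.9 to 149), 88.2 in Nac (27.1 to 218) and 91.1 in PFC (77.5 to 143). The medians of the other 3 regions lay close together. The difference between VTA and AMY was 0.49 (SE 0.026, adjusted p = 2.72e-55). Uqcrc1, a core structural subunit, differed between VTA and Nac by 0.47 (SE 0.022).

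ATP synthase was the most abundant group in single genes, and 16 of its 17 members were higher in VTA than in AMY, 13 than in Nac and 14 than in PFC. Atp5b had a median of 1409 CPM in VTA (1105 to 2017), against 992 in AMY (839 to 1498), 1045.4 in Nac (412 to 1362) and 1039 in PFC (883 to 1340). VTA was highest by its medians and overlapped each region. The difference between VTA and AMY was 0.52 (SE 0.020, adjusted p = 2.29e-87). Atp5a1, the alpha subunit that forms the catalytic ring with beta, differed by 0.43 (SE 0.017). Atp5g1, Atp5g2 and Atp5g3 all encode the same ring subunit c with different import sequences, and they split. Atp5g1 and Atp5g3 were higher in VTA than in AMY, by 0.43 (SE 0.029) and 0.42 (SE 0.030). Atp5g2 had medians of 37.2 CPM in VTA, 35.7 in PFC, 42.9 in Nac and 38.6 in AMY, and was lower in VTA than in Nac by -0.22 on the log2 scale (SE 0.022, adjusted p = 8.18e-22). Atp5e, the small epsilon subunit, differed between VTA and PFC by 0.03 (SE 0.046, adjusted p = 0.538).

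Complex IV, cytochrome c oxidase, held both the largest and the opposite regional differences. Of its 15 members, 13 were higher and 1 lower in VTA than in AMY, 10 and 2 than in Nac, and 12 and 2 than in PFC. Cox5a, a matrix-side subunit, had a median of 69.0 CPM in VTA (43.8 to 116), against 40.6 in AMY (24.5 to 88.6), 40.0 in Nac (11.5 to 165) and 41.6 in PFC (30.5 to 72.0). The other 3 regions had nearly equal medians, and the difference between VTA and AMY was 0.78 (SE 0.041, adjusted p = 9.62e-58). Cox7b, a small membrane subunit encoded on chromosome X, differed between VTA and Nac by 0.61 (SE 0.032).

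Several of its subunits come in isoforms, and not all of these followed one another. Cox6b1 and Cox6b2 were both higher in VTA than in each of the other regions, as were Cox7a1 and Cox7a2, by unlike amounts. Cox6a2, the heart and skeletal muscle form of subunit 6a, had medians of 3.21 CPM in AMY (1.62 to 5.68), 3.87 in Nac (1.16 to 9.47), 3.41 in PFC (2.23 to 6.79) and 0.425 in VTA (0 to 3.59). VTA was the low region, with 1 library at 0, and its range overlapped the others through its highest library and the lowest of theirs. The difference between VTA and Nac was -3.14 (SE 0.067, adjusted p = 1.55e-162). Its ubiquitous partner Cox6a1 had medians of 193 CPM in VTA, 180 in PFC, 174 in Nac and 150 in AMY, and VTA did not pass the test against Nac (log2 difference 0.05, SE 0.037) or PFC (-0.02, SE 0.037). An exon of Cox6a2 overlaps Itgad on the opposite strand. Cox7a1, the muscle form of subunit 7a, went the other way: its medians were 0.736 CPM in AMY (0.310 to 1.92), 0.600 in Nac (0.153 to 3.18), 0.552 in PFC (0.192 to 1.21) and 2.15 in VTA (1.35 to 5.33). All VTA libraries lay above all PFC libraries, and the difference was 1.91 (SE 0.060, adjusted p = 9.97e-111). Cox7a2, the common form, differed between the same regions by 0.13 (SE 0.035), and Cox7a2l, which takes part in joining complexes III and IV, by 0.36 (SE 0.030). At these low levels 1 CPM stands for 21.7 counts in the median library, so counting error is part of their spread.

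Cox4i2, an oxygen-responsive form of subunit 4, was highest in Nac, with a median of 1.84 CPM (0.535 to 6.29), against 0.925 in AMY (0.203 to 1.63), 0.968 in PFC (0.523 to 2.19) and 1.17 in VTA (0.634 to 2.27). Nac and AMY overlapped, and their difference was 1.06 (SE 0.052, adjusted p = 7.45e-63). Cox4i1, the general form, was instead highest in VTA, with medians of 380 CPM in VTA, 312 in PFC, 307 in Nac and 280 in AMY. Cox6b2, known as the testis form of subunit 6b, had a median of 2.07 CPM in VTA (1.15 to 8.52) and 0.812 in PFC (0.238 to 2.49), with overlap, and a difference of 1.29 (SE 0.068). Cox6b1 differed between the same regions by 0.36 (SE 0.033), and Cox6c by 0.24 (SE 0.035). Cox8a, the ubiquitous form of subunit 8, was highest in PFC, at a median of 240 CPM (189 to 367) against 210 in VTA (150 to 336), and VTA minus PFC was -0.28 (SE 0.030, adjusted p = 4.7e-19). Its muscle partner Cox8b was no member. It reached 12.95 CPM in a single VTA library, replicate 8 of the isolated females with acute cocaine, which also carried choroid plexus transcripts. Ndufa4, first assigned to complex I and now counted with complex IV, differed between VTA and AMY by 0.28 (SE 0.036). Its paralog Ndufa4l2 differed between VTA and PFC by 0.31 (SE 0.048).

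**Figure D2:**
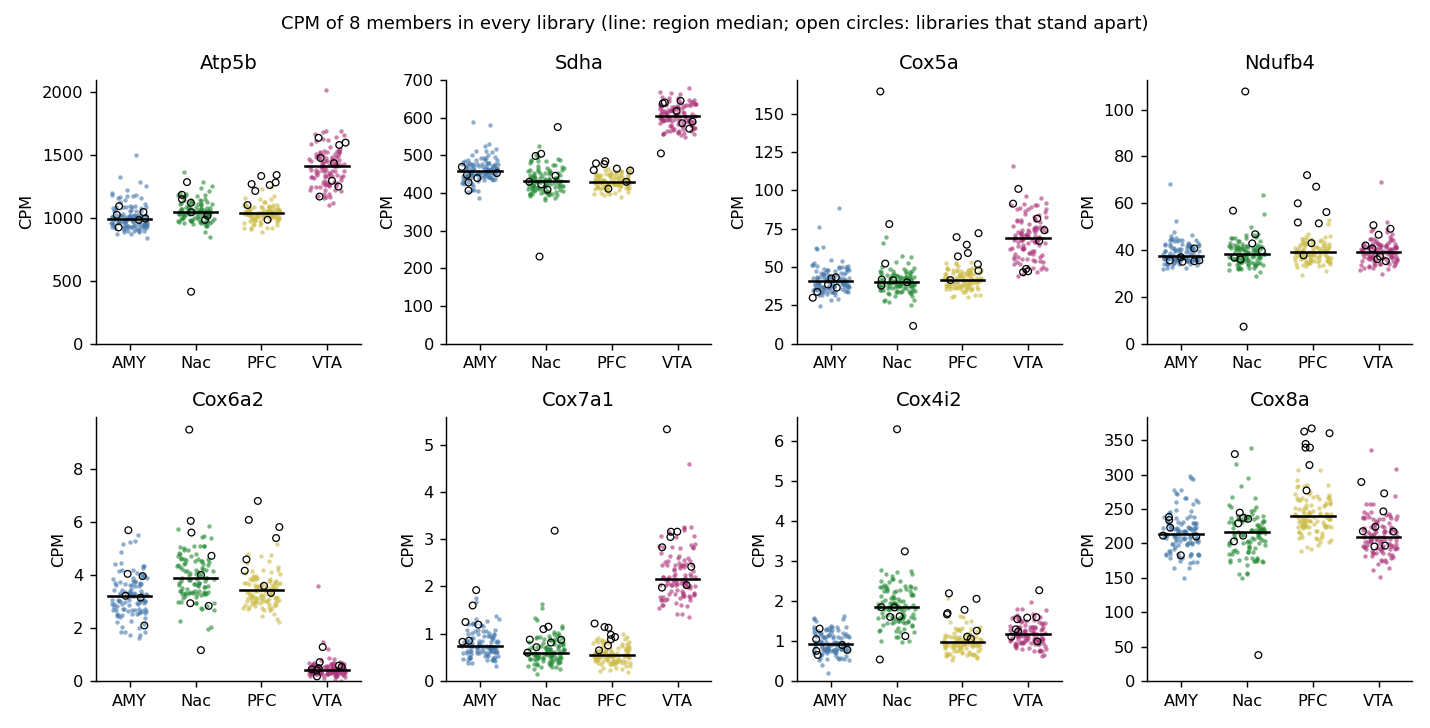
CPM of 8 members (y axes from 0) in every library of the 4 regions, with region medians as lines and the libraries that stand apart as open circles. VTA is the high region for Atp5b, Sdha, Cox5a and Cox7a1 and the low one for Cox6a2, Cox4i2 is highest in Nac and Cox8a in PFC. The region medians of Ndufb4 are all near 38 CPM, with single libraries far from them.

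Related pathways were read from lists chosen by their role. In VTA, all 13 citric acid cycle genes tested were higher than in AMY, than in Nac and than in PFC, with median log2 differences of 0.35, 0.36 and 0.34. Cycs (cytochrome c) and Cyc1 (cytochrome c1) were both higher in each. Of 16 glycolysis genes, 13 were higher and 3 lower in VTA than in AMY, the same counts held against Nac, and 7 were higher and 7 lower than in PFC. Of 42 assembly factors tested, the 4 Sdhaf genes among them, 31 were higher and 9 lower than in AMY, 17 and 18 than in Nac, and 22 and 16 than in PFC. The 80 cytosolic ribosomal protein genes, also short and abundant, gave 24 higher and 22 lower against AMY, 8 and 63 against Nac, and 37 and 19 against PFC. Other genes with transcripts under 1000 bases gave 285 higher and 172 lower of 550 against AMY, with a median of 0.09. Among 14 regulators, 8 were higher and 6 lower in VTA than in AMY, 6 and 7 than in Nac, and 7 and 6 than in PFC. Esrrg, an estrogen-related receptor, was at 114.1 ± 37.7 CPM in VTA (SD, n = 115), 19.3 ± 7.07 in AMY (n = 115), 24.98 ± 9.67 in Nac (n = 112) and 21.5 ± 3.60 in PFC (n = 112). The coactivator Ppargc1a was at 74.4 ± 11.2 CPM in VTA and 48.6 ± 8.50 in AMY, a log2 difference of 0.66 (SE 0.031). Nrf1 and Gabpa were instead lower in VTA than in AMY, by -0.24 (SE 0.015) and -0.15 (SE 0.019).

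Levels of cell type marker genes differed between the same regions. The summed CPM of the dopamine neuron list had a median of 4618 in VTA (1338 to 8783), against 69.7 in AMY, 55.4 in Nac and 43.7 in PFC, which fits the region label. Its enzyme Th, which makes the dopamine precursor, was at 825 ± 334 CPM in VTA (n = 115) and 4.40 ± 0.928 in PFC (n = 112). The oligodendrocyte list summed to a median of 17000 CPM in VTA (10530 to 23760), 3335 in AMY, 6192 in Nac and 2257 in PFC, with all 7 genes higher in VTA in each pair. The parvalbumin interneuron list, 6 genes, was at 3204 in VTA (1244 to 4104), 1115 in AMY, 1607 in Nac and 951 in PFC, with 4, 4 and 5 of its genes higher in VTA than in AMY, Nac and PFC and 2, 2 and 1 lower. Cplx1, a presynaptic complexin, made up most of the VTA sum, at 1691 ± 518 CPM (346 ± 128 in AMY), and Pvalb was at 79.7 ± 43.5 in VTA and 14.8 ± 4.13 in PFC, while Gad1, which makes GABA, was at 422 ± 157 in VTA, 569 ± 125 in AMY and 709 ± 76.7 in Nac. The general neuron list was at 6085 in VTA, 5321 in AMY, 4440 in Nac and 7269 in PFC. By single genes, 3, 4 and 2 of 7 neuron markers were higher in VTA than in AMY, Nac and PFC, and 4, 2 and 5 lower. The astrocyte list was at 2593 in VTA, 3619 in AMY, 3552 in Nac and 3688 in PFC. The astrocyte sum was carried by Slc1a2, a glutamate transporter, at 1655 ± 210 CPM in VTA and 2510 ± 450 in Nac, whereas by single genes 4, 5 and 5 of 7 astrocyte markers were higher in VTA than in AMY, Nac and PFC, and 3, 2 and 2 lower. The endothelial and mural lists had medians of 287 and 276 in VTA, and of 229 and 238 in AMY. No gene of these lists is at 0 in every library. The part of these cells in the members' levels was not tested.

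Within a region the members varied together from library to library. A member's correlation with the mean of the others (log2(CPM + 1)) had a median of 0.83 for AMY (n = 115), 0.93 for Nac (n = 112), 0.88 for PFC (n = 112) and 0.88 for VTA (n = 115), and 77 to 79 members were over 0.5. Without the libraries that stand apart these medians were 0.83, 0.80, 0.75 and 0.88. The lowest values were 0.296 for Cox6b2 in AMY, 0.194 for Uqcrc2, a core protein of complex III, in Nac (0.546 without the libraries that stand apart), 0.319 for Ndufa4l2 in PFC and 0.0104 for Cox6a2 in VTA. The mean of the members also moved with the mean of the 550 other short transcripts, with Pearson's r of 0.89 in AMY (n = 115), 0.96 in Nac (n = 112), 0.96 in PFC (n = 112) and 0.79 in VTA (n = 115), and Spearman's rho of 0.83, 0.86, 0.89 and 0.64. Leaving out the 2 libraries farthest from the median gave r of 0.85, 0.92, 0.94 and 0.68. With ribosomal protein genes r was 0.77, 0.96, 0.92 and 0.68, and with transcripts over 5000 bases it was -0.77, -0.84, -0.84 and -0.91. The points share library, depth and scaling, and these values are descriptions. Library totals followed the members little, with r from -0.10 to 0.15. The part of transcript length in the members' spread was not tested beyond these values.

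**Figure D3:**
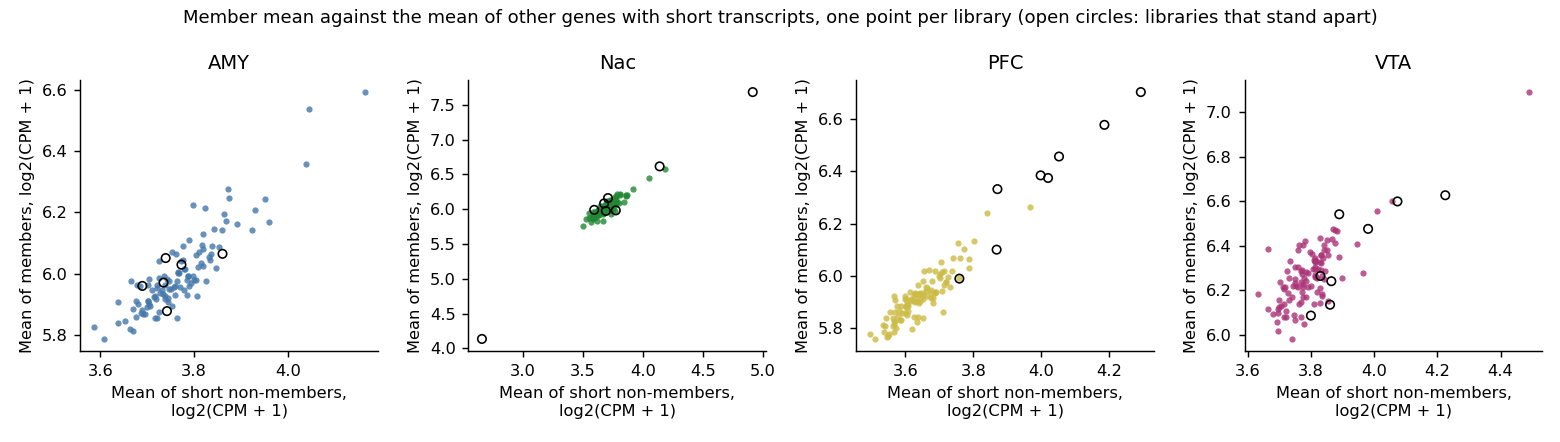
Mean of the 85 members against the mean of 550 other genes with transcripts under 1000 bases, both in log2(CPM + 1), 1 point per library and 1 panel per region, with libraries that stand apart as open circles. The points form rising bands in all 4 regions, and in Nac a library at 7.68 and another at 4.13 lie at the ends.

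Those 2 Nac libraries bear on several comparisons. In replicate 6 of the isolated females on chronic saline, the members took 2.73% of counts, and their mean was 7.68 on the log2(CPM + 1) scale, where the Nac median was 5.99. It was the highest Nac library for 74 of 85 members, with a median of 3.72 times the Nac median. Atp5e was at 590.5 CPM there against a Nac median of 59.3, and Ndufa2, an accessory subunit of complex I, at 437 against 47.6, while Atp5b was at 983 against 1045.4 and Uqcrc2 at 74.7 against 188. The excess was not the same at all transcript lengths: on the log2 scale, members under 500 bases (n = 6) stood 2.1 above the Nac median, those of 500 to 750 bases (n = 32) 2.08, those of 2000 to 3000 bases (n = 6) 0.34 and those of 3000 to 5000 bases (n = 4) 1.15. Other genes under 500 bases stood 0.67 above it, those of 500 to 750 bases 1.41 and those of at least 8000 bases at -1.14. In replicate 3 of the isolated males on chronic cocaine, of 11.21 M, the members took 0.284% of counts and were the lowest of Nac for 81 of 85, at a median of 0.237 times the Nac median. Members of 500 to 750 bases stood at -2.24 there, those of 2000 to 3000 bases at -1.05 and those of 3000 to 5000 bases at -1.06. The reason for these 2 libraries' values was not tested.

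**Figure D4:**
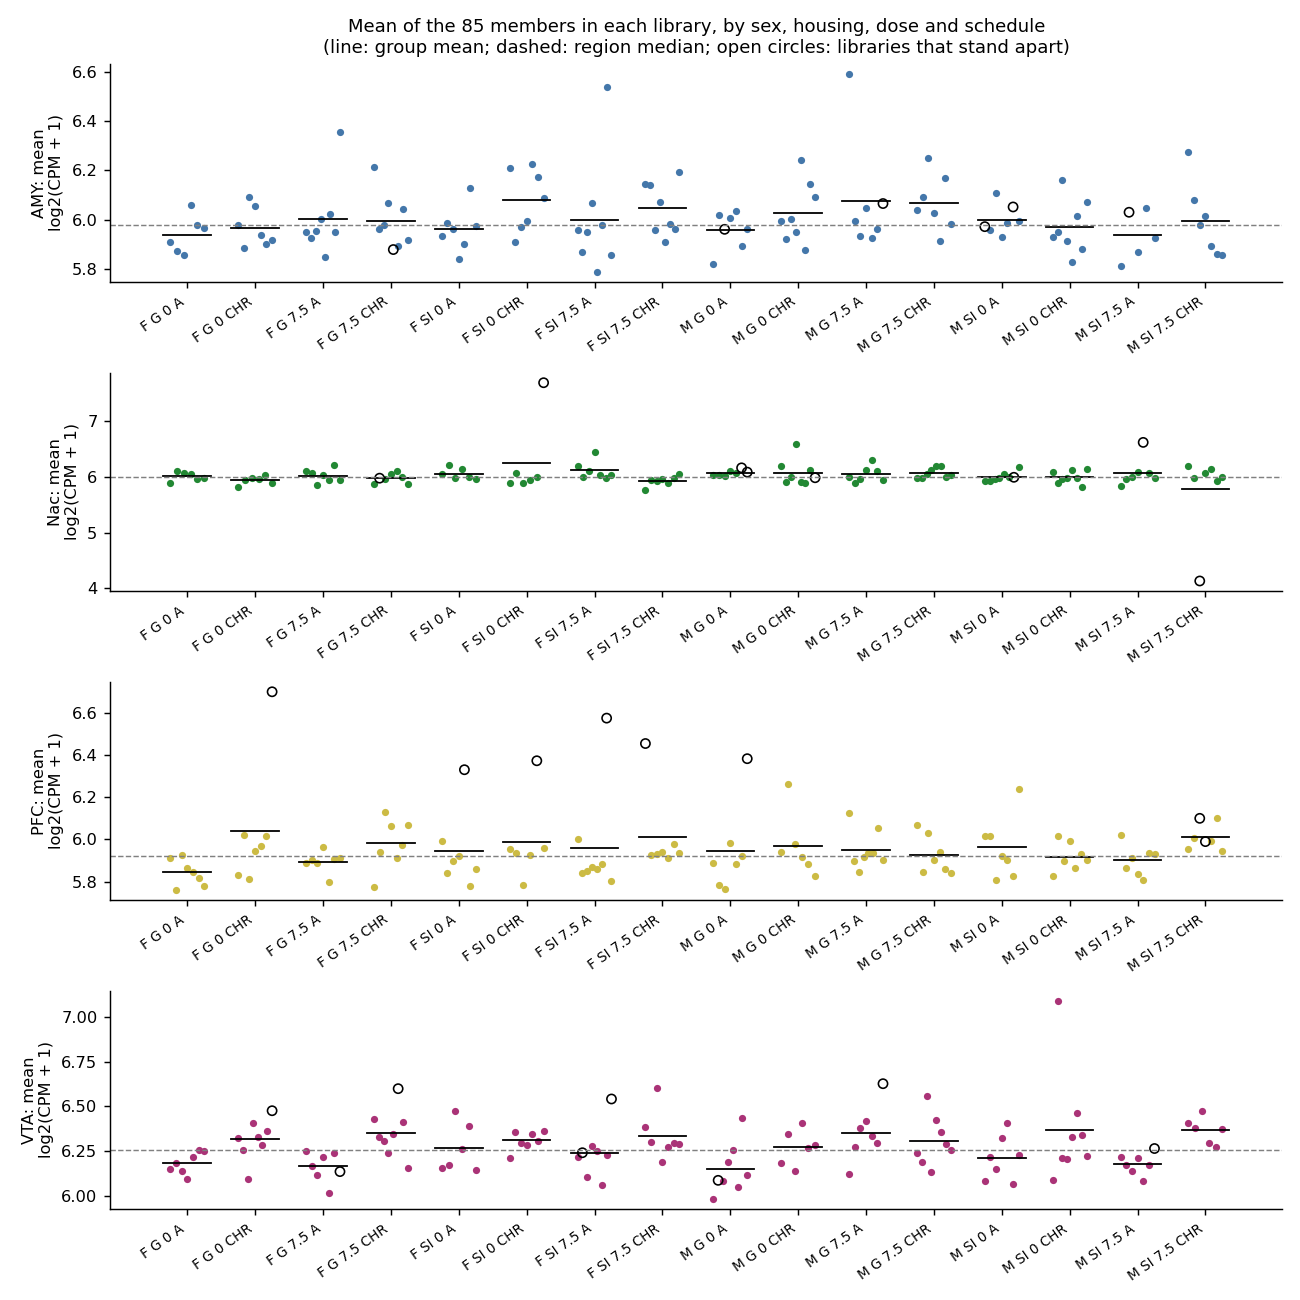
Mean of the 85 members in each library (log2(CPM + 1)), by sex (F, M), housing (G group-housed, SI isolated), cocaine dose in mg/kg and schedule (A acute, CHR chronic), 1 panel per region, with group means as lines, region medians dashed and libraries that stand apart as open circles. Group means lie close to the region median in most groups, and single libraries, such as those at 7.68 and 4.13 in Nac and 7.09 in VTA, lie far from theirs.

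Housing, cocaine and sex were then compared within each region, with edgeR's quasi-likelihood test over 17003 to 17391 genes. No member passed an adjusted p of 0.05 in any of the 32 comparisons, nor with DESeq2's Wald test or limma voom. The share of all genes that passed was 0% in AMY for housing over all groups, for housing under saline in each sex, for acute cocaine and for the change of either cocaine effect with housing. It was 0.0518% for chronic cocaine and 2.19% for sex in AMY. In Nac it was 0.151% for chronic cocaine, 0.272% for sex and 0% for the other 6. In PFC it was 0.0647% for acute cocaine, 7.12% for chronic cocaine, 1.12% for sex and 0% for the other 5. In VTA it was 0.0467% for acute cocaine, 0.0817% for chronic cocaine, 0.332% for sex, 1.28% for the change of the acute cocaine effect with housing and 0% for the other 4. A call was thus rare for any gene in most of these comparisons, chronic cocaine in PFC being the most frequent. Counts of members above 0 or at an unadjusted p are given below without the matching share of all genes. Members varied together within a region, so these counts are descriptions and not separate tests.

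**Figure D5:**
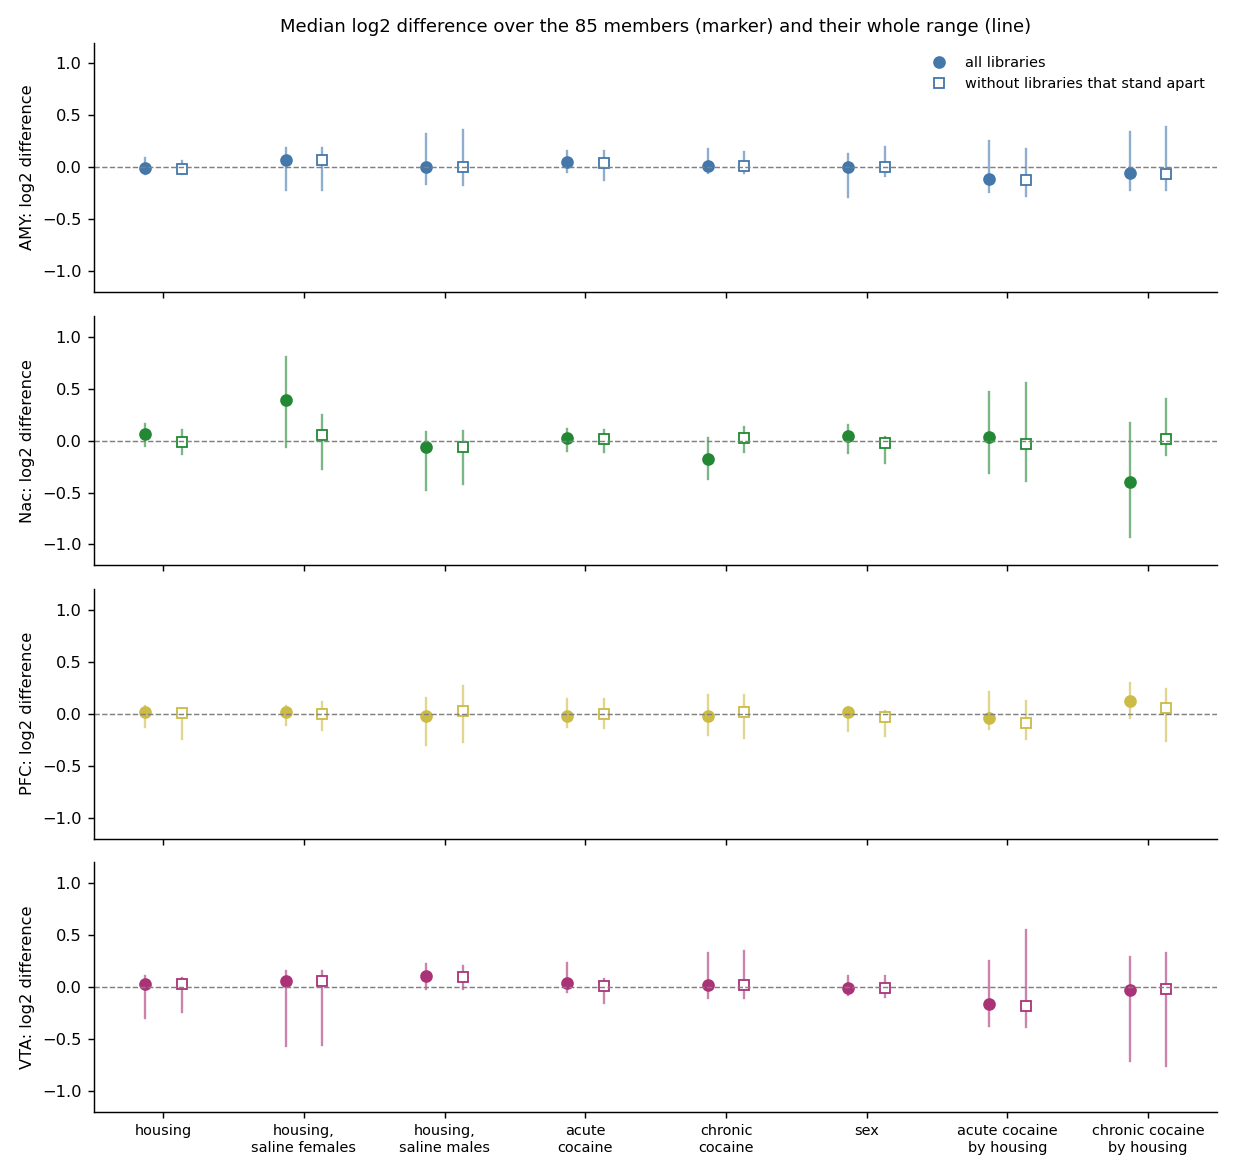
Median log2 difference over the 85 members (marker) and their whole range (line) for 8 comparisons in 4 regions, with all libraries (filled circles) and without the libraries that stand apart (open squares). The medians farthest from 0 are in Nac, where 0.39 for housing in saline females and -0.40 for the chronic cocaine effect by housing move to 0.05 and 0.01 without those libraries, while the -0.17 for the acute cocaine effect by housing in VTA is at -0.19 without them.

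Isolation under saline gave its widest median in females in Nac: the log2 difference from group housing had a median of 0.39, 83 of 85 members lay above 0, and 66 had an unadjusted p under 0.05 (51 with DESeq2, 8 with voom), with the lowest adjusted p at 0.158. Atp5e had values of 47.5, 56.97, 58.9, 61.5, 67.9 and 68.1 CPM in the 6 isolated females on acute saline, and 48.3, 54.2, 54.7, 54.8, 68.6 and 590.5 in the 6 on chronic saline. The 12 group-housed females lay between 51.1 and 66.1 CPM. Only the library at 590.5 stood outside the range of the rest, and the fitted difference was 0.80 (SE 0.21). Ndufa2 behaved alike, with 1 library at 437 and the other 11 isolated females between 39.4 and 59.4 CPM. Without that library the median over members was 0.05 and 0 members had an unadjusted p under 0.05. Leaving out other single libraries of its group (replicates 1, 3, 4 and 5) brought 24 to 33 members past the threshold. In males in Nac the median was -0.06, with 2 members above 0 and 1 with an unadjusted p under 0.05 (8 without the libraries that stand apart). Over all 8 pairs of groups the medians were 0.06 in Nac (-0.02 without those libraries), 0.02 in PFC and -0.0022 in AMY, with 1, 0 and 0 members at an unadjusted p under 0.05.

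In VTA, isolation under saline gave a median of 0.11 in males (84 members above 0, 16 with an unadjusted p under 0.05 in edgeR and in DESeq2, 10 with voom) and 0.06 in females (82 above 0, 1 unadjusted), and these kept 0.10 and 0.06 without the libraries that stand apart. Uqcrh, the hinge protein of complex III, had a median of 173 CPM in 15 isolated saline males (147 to 330) and of 157 in 14 group-housed ones (131 to 209), with wide overlap and a difference of 0.20 (SE 0.071, unadjusted p = 0.00713). Over all groups of VTA the median was 0.03, 84 members lay above 0 and 2 had an unadjusted p under 0.05. Cox8a had the lowest p there, with a median of 214 CPM in isolated mice (173 to 336) and 206 in group-housed ones (150 to 289). In AMY the median was 0.07 in females under saline (77 above 0, 7 unadjusted with each tool) and 0.01 in males (49 above 0, 2 unadjusted). Uqcrb, a small subunit of complex III, was at a median of 56.1 CPM in 14 isolated AMY females (47.8 to 75.2) and 50.0 in 13 group-housed ones (45.9 to 59.5). In PFC the medians were 0.02 in females and -0.02 in males, with no unadjusted p under 0.05 in edgeR.

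Acute cocaine, averaged over the 4 combinations of sex and housing, gave medians of 0.05 in AMY (79 members above 0, 2 unadjusted), 0.03 in Nac (71 above 0, none unadjusted), -0.02 in PFC (24 above 0, 1 unadjusted) and 0.03 in VTA (74 above 0, 1 unadjusted). The VTA median was 0.0069 without the libraries that stand apart. Atp5s, a coupling factor of ATP synthase, had the lowest p in PFC, with a median of 12.3 CPM under cocaine (10.3 to 15.0, n = 30) and 12.6 under saline (10.9 to 19.2, n = 28). The 2 sides overlapped almost wholly.

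Chronic cocaine gave medians of 0.02 in AMY (60 above 0, none unadjusted), -0.02 in PFC (20 above 0, none unadjusted in edgeR) and 0.02 in VTA (66 above 0, 2 unadjusted). In Nac the median was -0.18, with 1 member above 0 and 48 with an unadjusted p under 0.05 (38 with DESeq2, 14 with voom). Sdhaf1 had the lowest adjusted p (0.110), with a median of 4.19 CPM under cocaine (0.714 to 5.68, n = 29) and of 4.63 under saline (3.76 to 20.9, n = 28). Both extremes were the 2 Nac libraries described above. Without the libraries that stand apart the Nac median was 0.02, and without replicate 6 of the isolated females on chronic saline alone it was -0.02. In PFC, where chronic cocaine called 7.12% of genes, Ndufa4l2 had the lowest p, with medians of 1.91 CPM under cocaine (1.27 to 2.80, n = 28) and 1.69 under saline (0.873 to 2.41, n = 26) and a difference of 0.18 (SE 0.091, adjusted p = 0.222). In VTA it was Cox8a, with 230 CPM under cocaine (170 to 308, n = 29) and 211 under saline (150 to 336, n = 29). These chronic comparisons, the 7.12% in PFC among them, also set number series apart (500 and 1200 under saline, 1000 and 1200 under cocaine).

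The change of the acute cocaine effect with housing was the comparison in VTA in which the members came nearest to the threshold. Acute cocaine minus saline was lower in isolated than in group-housed mice by a median of -0.17, with 4 members above 0. At an unadjusted p under 0.05 there were 37 members (37 with DESeq2, 38 with voom). At an adjusted p under 0.05, 1.28% of all genes were called and no member. Ndufa9, an accessory subunit of complex I, had the lowest adjusted p (0.0659). In group-housed males its median was 104 CPM under acute saline (93.8 to 143) and 128 under acute cocaine (109 to 149). In isolated males the medians were 115 (93.8 to 141) and 112 (105 to 115). In females they were 112 and 115 in group housing, and 118 and 117 in isolation. By these medians the cocaine side was the higher one in group-housed males and not in isolated males, with overlap of the libraries, and the change with housing over both sexes was -0.26 (SE 0.080). Atp5a1 gave -0.18 (SE 0.061, adjusted p = 0.101). With the libraries that stand apart left out, 1 member passed (adjusted p of 0.0497) and the median was -0.19. In the 1000 series of title numbers alone 13 were lower, and 25 were lower with the level of short transcripts as a covariate. In AMY the same comparison gave a median of -0.11 with 6 members above 0 and 6 unadjusted (6 with DESeq2, 7 with voom). In Nac and PFC the medians were 0.04 and -0.04, with 0 unadjusted, and -0.03 with 5 and -0.09 with 24 unadjusted without the libraries that stand apart. For chronic cocaine, the change of the effect with housing had medians of -0.05 in AMY and -0.03 in VTA, both with 0 unadjusted, and of 0.12 in PFC with 2 unadjusted (0.05 with 1 without the libraries that stand apart). In Nac it was -0.40 with 54 unadjusted (45 with DESeq2, 38 with voom), and 0.01 with 1 unadjusted without them.

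No member passed the threshold between females and males in any region with all libraries. The median of females minus males was -0.0044 in VTA, 0.02 in PFC, 0.05 in Nac and 0.0019 in AMY, and -0.02 in Nac and -0.03 in PFC without the libraries that stand apart, where 1 PFC member passed the threshold. At an unadjusted p there were 1 in AMY, 3 in VTA and 0 in Nac and PFC (5 and 13 without those libraries). Cox6b2 in AMY had the lowest adjusted p of all members and regions for sex (0.137), with a median of 1.25 CPM in 59 females (0.673 to 2.62) and 1.35 in 56 males (0.601 to 5.23), and a difference of -0.28 (SE 0.11). The highest values were single male libraries on the acute schedule, at 5.23, 4.27 and 3.88 CPM. All of them are among the AMY libraries that stood apart on choroid plexus markers, and the difference of -0.28 includes them.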

How the data were processed

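Polyadenylated RNA of mouse brain libraries from 4 regions was read as 50-base single ends from stranded TruSeq libraries, per the labels' protocols. The deposited table holds raw read counts per gene. STAR, featureCounts and limma were used with GRCm38/mm10, per the submitters' processing notes, while the sources used here do not give versions, annotation release or strand setting. Symbols came from a table of gene names, and lengths and overlaps from GENCODE M21. A length is that of the longest transcript tagged there as principal (APPRIS), or of all exons joined where none is tagged. Genes that mainly use a shorter transcript, if any, are thus given too great a length. CPM values are the deposited counts divided by each library's total in mega-counts, and log2 values add a pseudocount of 1.

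Each region was fitted apart with its 16 groups as cell means in R 4.3.3 and edgeR 4.0.16 (filterByExpr, TMM, robust quasi-likelihood), and all 64 groups together for region pairs. P-values are two-sided and adjusted by Benjamini-Hochberg over all genes tested, with a threshold of 0.05. Alternatives were DESeq2 1.42.0, limma 3.58.1 (voom), other scaling, no filter, number series, single replicates left out, title numbers as a block and, chosen after seeing the data, the level of short transcripts as a covariate. The fits were tested on simulated data. A library stood apart with a robust z over 5 on any of 4 principal components of 3000 variable genes that are not members, or over 8 on a marker list.

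Named for the region pairs were the 8 members with the widest and the 4 with the narrowest range of region means, paralog sets and core subunits, and elsewhere the 2 members with the lowest p where none passed. Members and lists were chosen with earlier results of these data known. Within groups, counts of the closest pair of libraries still differed beyond sampling noise (chi-square 2.81 for each degree of freedom), so each library counted once. Sequences are RefSeq's, of GRCm38.p6.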

Additional observations from a re-analysis of the deposited data

Results flagged for a closer look

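The member mean (log2(CPM + 1)) of 1 library stood far outside the others of its group in 16 of 64 groups (25%), where chance would give about 1 in 20. It was high in 15 and low in 1, and 10 of the 16 also stood apart on other genes. In all 15 high libraries the mean of the short transcripts was above the median of the others in the group. In AMY these were replicate 8 of the group-housed females with acute cocaine (6.357, others 5.847 to 6.022), replicate 7 of the isolated females with acute cocaine (6.537, others 5.788 to 6.066) and replicate 1 of the group-housed males with acute cocaine (6.592, others 5.923 to 6.065). In Nac they were replicate 6 of the chronic saline isolated females (7.683, others 5.882 to 6.060), replicate 4 of the group-housed males with chronic saline (6.579, others 5.886 to 6.201), replicate 5 of the isolated males with acute cocaine (6.615, others 5.828 to 6.077) and, on the low side, replicate 3 of the isolated males with chronic cocaine (4.134, others 5.925 to 6.197).

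In PFC they were replicate 7 of the group-housed females with chronic saline (6.702, others 5.813 to 6.022), replicate 5 of the isolated females with acute saline (6.331, others 5.780 to 5.993), replicate 5 of the chronic saline isolated females (6.374, others 5.784 to 5.960), replicate 7 of the isolated females with acute cocaine (6.576, others 5.800 to 6.000), replicate 1 of the isolated females with chronic cocaine (6.456, others 5.913 to 5.977), replicate 7 of the group-housed males with acute saline (6.384, others 5.766 to 5.982) and replicate 2 of the group-housed males with chronic saline (6.262, others 5.828 to 5.979). In VTA they were replicate 8 of the isolated females with acute cocaine (6.541, others 6.059 to 6.277) and replicate 2 of the isolated males with chronic saline (7.089, others 6.091 to 6.465).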

How the results depend on the processing

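Of the counts of members past the threshold under alternatives, 469 stayed on the same side and within 1.5 times, 16 were stronger, 7 weaker and 5 reversed. Within regions no member passed in the main fits, so a count there could only stay at none or be stronger. All the weaker and reversed counts are thus of region pairs, and the pooled 469 does not measure how stable the region pairs are. Series of title numbers alone gave 1 member for housing in saline females in AMY, 80 for housing and 81 for sex in Nac (series 500, which holds the Nac library at 7.683), and 4 for acute cocaine and 13 for its change with housing in VTA (series 1000). Without the libraries that stand apart 1 passed for sex in PFC and 1 for the change of acute cocaine with housing in VTA, where the short transcript covariate gave 25. Leaving out single replicates of the isolated females with chronic saline in Nac gave 0 to 33 for housing in saline females and 0 to 1 for chronic cocaine.

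For region pairs, members higher in Nac than AMY were 20 and 18 in series 1000 and 1200. Those higher in PFC than AMY were 13 without TMM factors, 26, 26, 27 and 14 in series 500, 1000, 1100 and 1200, and 76 with the short transcript covariate. Those lower in PFC than Nac were 68, 15, 19 and 12 in the 4 series and 21 with the covariate, with the direction turned in series 1000 and 1200 and with the covariate. VTA against Nac turned in series 500, at a median of -0.12. In series 500 the Nac library at 7.683 is the only library of the isolated females, which also holds for PFC against Nac. In VTA against AMY 72 to 76 members and against PFC 55 to 72 were higher in every series. Smaller series test fewer libraries, and other causes were not tested.

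Title numbers that recur across regions carry the same labels in each, and the labels do not say whether a number marks a mouse. The correlation over genes of same-numbered libraries, as deviations from their group means, exceeded 0.1 in 25.5 to 50% of pairs, with medians of 0.029 to 0.103. This does not settle whether the numbers pair the samples. As a replicate block in voom they changed none of the 6 counts by over 1.5 times and gave 44, 42, 80, 70 and 75 members higher in Nac than AMY, PFC than AMY, VTA than AMY, VTA than Nac and VTA than PFC, and 29 lower in PFC than Nac.

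Single members changed sign at the following log2 differences. With the series as a term, AMY chronic cocaine gave -0.0075 for Ndufb2 and -0.11 for Ndufa1 (-0.060 in series 1200), and PFC chronic cocaine 0.0032 for Ndufs1 (0.0091 in 1200). In series 500 the values were 0.012 for Ndufc1 and 0.027 for Atp5g2 (0.0062 in 1000) for AMY housing, -0.013 for Cox6a2 for AMY sex, 0.0032 for Atp5s in Nac saline males, -0.057 and -0.019 for Cox8a for housing in PFC and VTA, -0.047 for Ndufs1 for PFC sex, -0.0020 for Sdhaf2, -0.074 for Cox7a2 and -0.020 for Atp5g1 in VTA minus Nac, -0.060 for Atp5e in VTA minus PFC and -0.26 for Ndufb4 in PFC minus Nac. In series 1100 they were -0.00040 for Atp5e in Nac saline females, -0.17 for Uqcrb and -0.059 for Ndufs4 for Nac sex, 0.073 for Atp5s and 0.25 for Sdhaf4 in PFC saline females, and -0.049 for Atp5e in VTA minus PFC (-0.25 with the covariate). In series 1200, Nac chronic cocaine by housing gave 0.13 for Atp5e and 0.071 for Ndufs6. Ndufb7 for Nac housing gave -0.0099 without the libraries that stand apart, -0.030 in series 1200 and -0.0031 to 0.16 with single replicates of the isolated chronic saline females left out, the lowest being without replicate 6. Cox6b2 for VTA acute cocaine gave -0.025 without the libraries that stand apart and -0.023 in series 1000.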

Other observations

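Across the 8 groups of each schedule, the group means of the members (log2(CPM + 1)) in VTA lay between 6.27 and 6.37 on the chronic schedule and between 6.15 and 6.35 on the acute schedule, with medians of 6.33 and 6.20. In the 1000 series of title numbers, which holds both schedules, the VTA library medians were 6.33 (n = 21) and 6.17 (n = 28), beside 3.81 and 3.78 for the short transcripts. All chronic libraries of that series received cocaine, while its acute ones received saline or cocaine. The group medians, chronic first, were 6.011 and 5.98 in AMY and 5.985 and 5.945 in PFC. In Nac they went the other way, at 5.98 and 6.05. The schedules were not compared in a test. Handling that differed with the schedule, and dose within the 1000 series, cannot be told apart from it.

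Cox6b2, Ndufa4l2, Sdhaf3 and Atp5s were the members whose correlation with the mean of the other members was under 0.5 in every region with all libraries (Sdhaf3 and Atp5s were at 0.509 and 0.508 in AMY without those that stand apart). It was 0.319, 0.285, 0.336 and 0.45 over VTA libraries (n = 115) and 0.321, 0.464, 0.418 and 0.432 over Nac libraries (n = 112). Cox7a1 and Cox4i2, isoforms at low levels, were at 0.587 and 0.347 in VTA.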
